A study of Mus musculus with 12 samples.

Results

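The cytosolic ribosomal protein genes are described here in the adrenal gland of mice with extra copies of Ftz-F1, each set against a wild-type littermate matched for sex and age. The measurements were made on 2-colour arrays. Members were chosen by name: probes whose symbol in the platform's annotation table is Rpl or Rps followed by a number and at most 1 letter with further digits, or Rplp0, Rplp1 or Rplp2. Mitochondrial ribosomal proteins and the Rps6k kinases were left out, and so were the probes of Rpl12 and Rpl36, which list several genes. This gave 73 probes for 72 genes, 46 of the large and 26 of the small subunit, out of 18617 named genes on the array. All 72 were among the 21513 features that could be tested.

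All transgenic mice came from line #56, so every result rests on that line. Ftz-F1 is Nr5a1, which encodes SF-1, a nuclear receptor needed for the development of the adrenal gland and the gonads. Pairs 11, 13 and 15, named after the transgenic mouse, were 10 days old and heterozygous with 1 copy of the transgene, labelled YAC. Pairs 1, 3 and 5 were 4 months old and homozygous with 2 copies. The mice were female in pairs 15 and 5 and male otherwise. Each pair was hybridised on 2 arrays with the dyes exchanged, 12 arrays in all, and the pair is the replicate. Age and copy number change together and cannot be told apart, and the same holds for dye orientation and the batch read from the array descriptions.

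All values are log2 ratios of a pair, corrected for dye and signal and averaged over both arrays, with the sign as deposited. No source used here states whether a positive ratio means more or less in the transgenic mouse, so the text speaks of positive and negative ratios only. The gene under test, Nr5a1, had ratios of -0.57, -0.65 and -0.79 in pairs 11, 13 and 15 and of -0.45, 0.12 and -0.22 in pairs 1, 3 and 5. Its mean over all pairs was -0.43 (SE 0.09), with an adjusted p of 0.104 in limma. Whether its probe reads the transcript of the transgene is not given either, and no direction was taken from it. The tissue markers were bright: the spots of Star and Cyp11a1, which serve steroid synthesis, were brighter than 98.9% and 98.7% of features, and those of Th and Dbh, which serve catecholamine synthesis in the medulla, brighter than 88.5% and 88.4%.

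Ribosomal proteins assemble with ribosomal RNA into the small subunit, which decodes the mRNA, and the large subunit, which joins the amino acids. Their mRNAs are among the most abundant of any cell, and their levels follow the number and the growth of the cells in a tissue. Most of these mRNAs start with a 5′ terminal oligopyrimidine tract, a C at the cap followed by a run of pyrimidines, through which mTOR signalling sets their translation together. In a gland, fewer cells of a type and less RNA per cell cannot be told apart.

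The start sites of 7 members described in detail below are shown, with every start that the table lists for them, whether or not it carries this feature; they were picked after their values were seen. Windows of 30 bases, 10 before and 20 from the annotated start, are given 5′ to 3′ on the gene's strand from RefSeq (GRCm38.p6), with a run of C followed by at least 4 pyrimidines in capitals. Rps18, Rps6 and Rplp2 carry the run at the start, and Rps28 and Rpl5 have none in the window. Of the starts of Rpl34, one has a run 1 base after it and the other a longer run that ends just past it. Only the last listed start of Rps19 has a run, further downstream.
Rps28: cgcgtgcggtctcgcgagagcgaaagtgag
Rpl34, first start: tccctgacgtaCTTCCTgtccggcgccgtc
Rpl34, other start: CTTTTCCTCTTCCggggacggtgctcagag
Rpl5: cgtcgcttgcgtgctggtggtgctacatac
Rps19, first start: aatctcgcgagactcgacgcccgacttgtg
Rps19, middle start: cggtgagtgagggctctgggtcgcggctgt
Rps19, last start: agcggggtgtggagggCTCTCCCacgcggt
Rplp2: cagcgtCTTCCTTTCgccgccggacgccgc
Rps18: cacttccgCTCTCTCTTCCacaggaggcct
Rps6: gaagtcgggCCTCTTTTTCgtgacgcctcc
The windows lie at chr17:33824543-33824572 (-) for Rps28, chr3:130730379-130730408 (-) and chr3:130730318-130730347 (-) for Rpl34, and chr5:107900518-107900547 (+) for Rpl5. Those of Rps19 lie at chr7:24884582-24884611, chr7:24884666-24884695 and chr7:24884903-24884932 (+). Those of Rplp2, Rps18 and Rps6 lie at chr7:141447641-141447670 (+), chr17:33955646-33955675 (-) and chr4:86857348-86857377 (-). Of the 72 members 59 had at least 1 of 71 start sites in the table. The run stood exactly at 13 of the 71 starts (18.3%), against 2.51% of all 32851 starts, and somewhere in the window at 42 of 71 (59.2%), against 35.8%. A tract a few bases from the annotated start counts only in the share for the window. These matches describe letters in a window and not a measured cap site.

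The abundance of these mRNAs set a limit on the measurement. The median spot signal of the members was 16927 scanner units, against 312 for all features, and the scanner cannot record above 65535. Of the 72 members 22 (30.6%) had a signal of at least 32768, against 0.358% of all features, and are called near the limit here. The members just under that boundary were Rpl7a (32175), Rps28 (30094) and Rpl28 (29723), and those just over it Rpl7 (34152), Rps20 (34535) and Rps13 (36018). Equal readings in both channels give a deposited value of exactly 0, which 67 of 874 member values (7.67%) were, against 0.168% of all values. In bright probes such a 0 was taken as both channels at the limit, which holds no ratio; this reading was chosen after seeing the data. It was applied to 59 probes of the array, while 277 probes had an exact 0 on 1 array only. Rpl41, with a signal of 16604, had 1 exact 0 and counts as below the limit.

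Among the near-limit members, Rpl9 and Rps12 had no usable ratio on 9 of 12 arrays, Rpl19 on 8, Rpl37a on 7, and Rpl35 and Rpl8 on 6. Rpl29 lacked it on 5 arrays, Rps16 and Rps23 on 4, Rpl10a, Rpl17 and Rpl32 on 3, and Rpl15, Rps2 and Rps6 on 2. Rpl30, Rpl34, Rpl7 and Rps20 lacked it on 1 array, and Rps13, Rps14 and Rps4x on none. After the correction a spot deposited as 0 takes the value that the dye trend has for the brightest spots, the same for all such genes. Rps12 and Rpl9 thus both carry -0.84 and -0.34 on the arrays of pair 3, and -0.36 and -0.23 on those of pair 5. The counts below are given for all 72 members and again for the 50 below the limit.

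**Figure D1:**
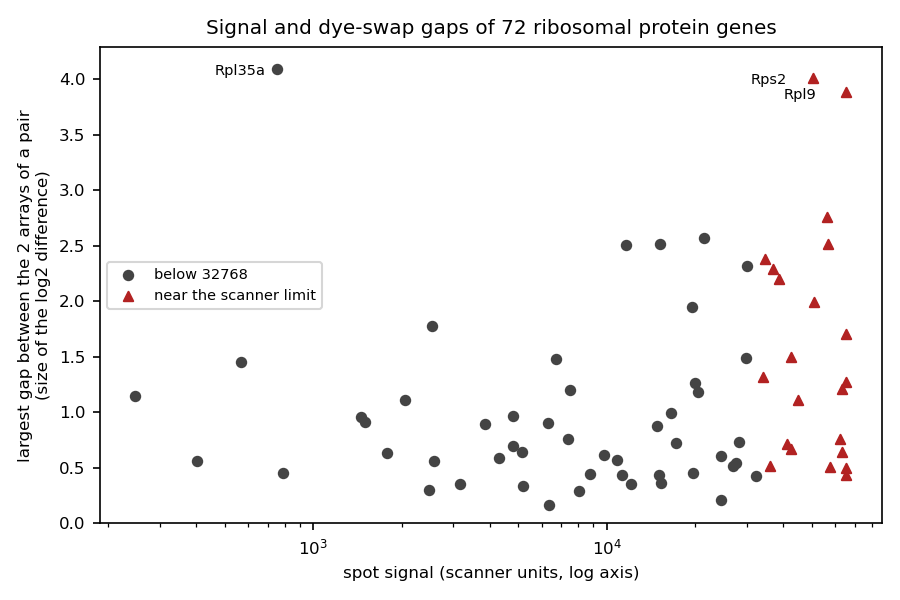
Spot signal of each of the 72 members (scanner units, log axis) against the largest gap between the 2 arrays of a pair (size of the log2 difference). Circles are members below 32768 and triangles the 22 near the limit. Rpl35a (4.09), Rps2 (4.01) and Rpl9 (3.88) have the widest gaps. In those of Rps2 and Rpl9, 1 array was deposited as 0.

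The median size of the gap between the 2 arrays of a pair was 0.19 to 0.39 for the members, against 0.29 to 0.46 for all features, and smaller for the members in every pair but pair 3 (0.39 against 0.34). Members with opposite signs on the 2 arrays numbered 16 to 31 of 72 by pair, and the share of all features with opposite signs was 42.9% to 50.9%. A gap over 1 in at least 1 pair occurred in 14 of the 22 near-limit members and in 15 of the other 50. Rpl35a, a large-subunit protein, was the only member whose orientations differed by more than 2 on average (-2.05), with a gap of -4.09 in pair 13. The 2 probes of Rpl17, a protein at the rim of the exit tunnel, differed by less than 1 in both group means, but were 1.27 and -0.13 in pair 11 and -1.14 and -0.0030 in pair 3.

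Seen pair by pair, the ratios of the ribosomal protein genes leaned together in some pairs and not in others. Their median was 0.04, -0.09 and 0.37 in the 10-day pairs 11, 13 and 15, and -0.17, -0.49 and -0.03 in the 4-month pairs 1, 3 and 5. Over all features the median lay between -0.01 and 0.0046 in every pair. Within each age the only female pair, 15 at 10 days and 5 at 4 months, had the highest median of the members. With 1 female pair at each age, sex and pair cannot be told apart. Pair 15 and pair 3 stood apart in opposite directions: 64 of 72 members (88.9%) were positive in pair 15, against 49.7% of all features, and 60 (83.3%) were negative in pair 3, against 49.3%. Pair 15 held the highest ratio of 39 of the 71 members with all values (54.9%, against 18.2% of features), and pair 3 the lowest of 35 (49.3%, against 19.0%).

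**Figure D2:**
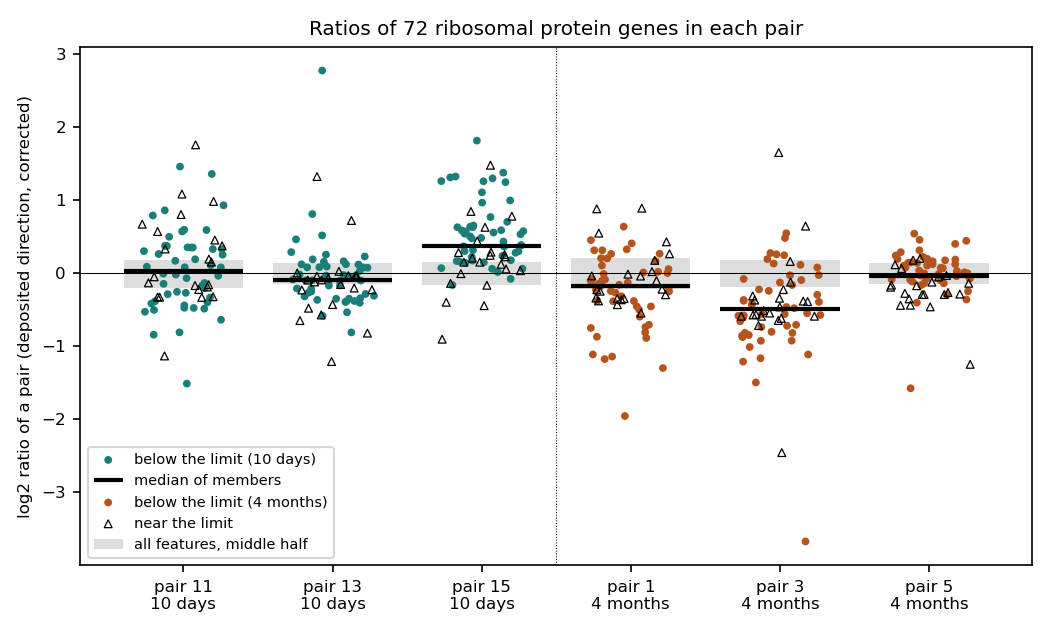
Log2 ratio of each of the 72 members in the 6 pairs (points below the limit, open triangles near it), with the median of the members as a bar and the middle 50% of all features in grey. The median is highest in pair 15 (0.37) and lowest in pair 3 (-0.49).

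Between signals of 4096 and 32768, other spots did not lean with the members in pairs 15 and 3. All 36 members of that range were positive in pair 15 with a median of 0.55, while 1145 other features had a median of -0.01. In pair 3 the same 36 members had a median of -0.60 with 34 negative, and 1143 other features one of 0.07. In pair 5 the values were -0.01 and -0.05. At signals of at least 32768, the 22 members had medians of 0.18 in pair 15 and -0.49 in pair 3. The 55 other features had 0.02 and -0.12, with 34 negative in pair 3. In pairs 1 and 5 these members (-0.16 and -0.23) and other features (-0.22 and -0.20) lay close together. The 14 members under 4096 had a median of 0.37 in pair 15 and 0.05 in pair 3, where 7 were negative and 7 positive. In pair 5, 12 of the 13 with a value were positive.

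A set of 10 members exceeded 1 in pair 15, chosen by that value: Rpl5, Rpl11, Rpl24, Rpl27, Rpl37a, Rpl38, Rplp1, Rplp2, Rps3a1 and Rps19. All 10 had a negative corrected ratio in pairs 1 and 3, with medians of -0.84 and -0.77. Rpl24 was deposited as 0.51 and -0.25 on the arrays of pair 3, so its negative sign there comes from the correction. Rpl37a was deposited as 0 on both arrays of pair 1 and on 1 of pair 3, so its sign there comes from the dye correction, and its pair 15 value rests on 1 array (2.86 against 0.10). In pair 11, 8 of the 10 were negative. Rpl5, which carries the 5S ribosomal RNA into the large subunit together with Rpl11, shows the pattern. Its ratios were -1.51, -0.58 and 1.38 in pairs 11, 13 and 15 and -0.87, -0.80 and 0.20 in pairs 1, 3 and 5. Each of these was found on both arrays: -1.50 and -1.52 in pair 11, 1.34 and 1.41 in pair 15, -0.79 and -0.81 in pair 3. The 10-day pairs held both the highest and the lowest ratio of Rpl5, and the groups overlapped.

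Rps19, a small-subunit head protein and the gene most often mutated in Diamond-Blackfan anaemia, had ratios of -0.27, -0.21 and 1.82 at 10 days and -0.89, -1.21 and 0.19 at 4 months. Rplp2, a stalk protein that recruits the elongation factors, had -0.47, 0.12 and 1.26 and then -0.45, -1.50 and 0.07. In both genes pair 15 was far above the other 10-day pairs, pair 3 was the lowest, and the groups overlapped.

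**Figure D3:**
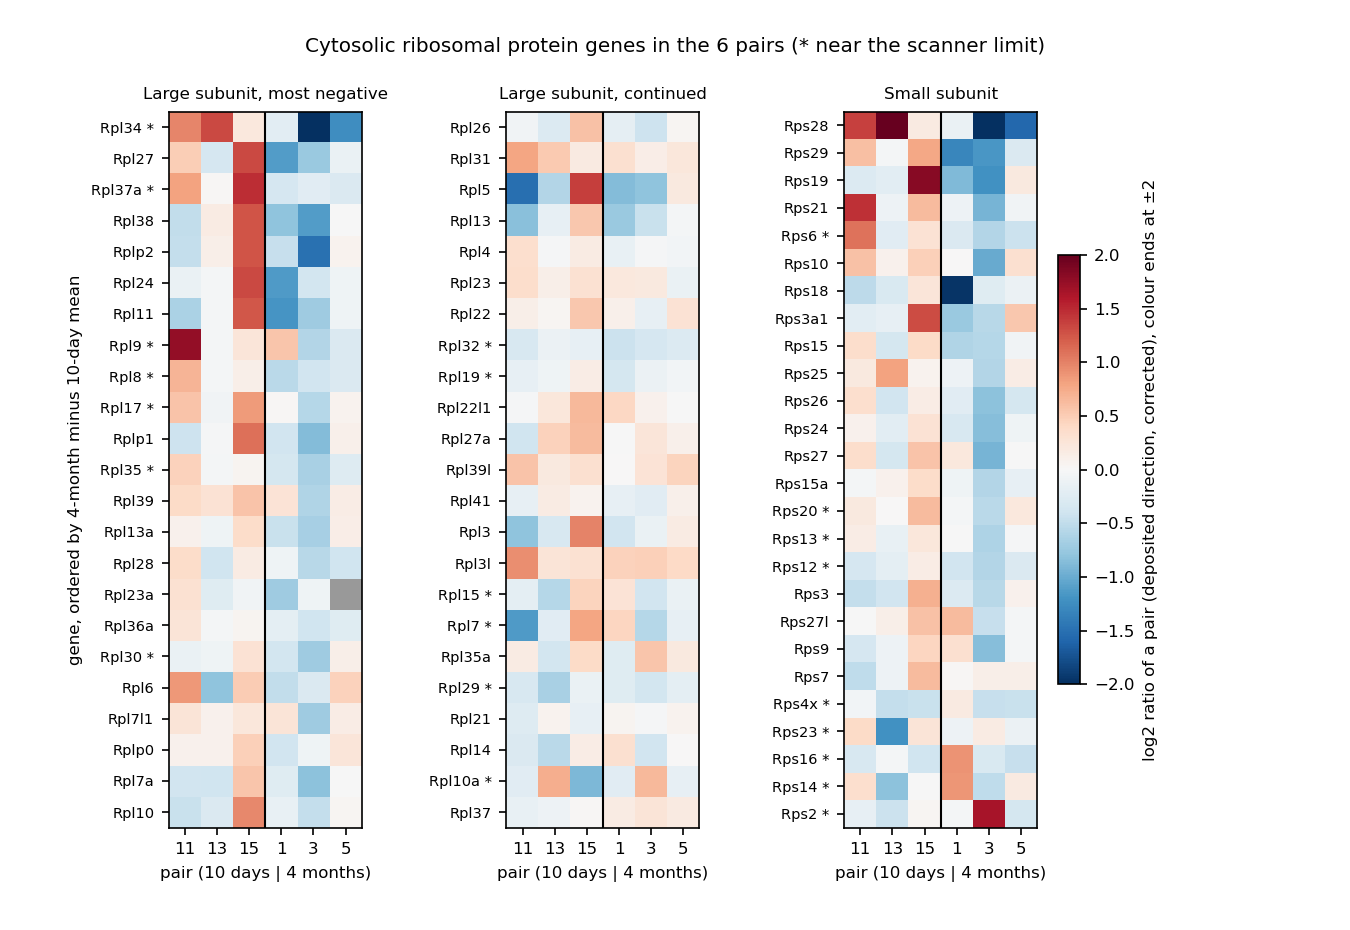
Log2 ratios of the 72 members in the 6 pairs, genes in rows within each subunit from the most negative to the most positive 4-month minus 10-day mean, colour from -2 to 2, grey for no value and a star for members near the scanner limit. The column of pair 15 is mostly positive and that of pair 3 mostly negative, and Rps28 and Rpl34 have the strongest contrast between the ages.

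At 10 days with 1 copy, no ribosomal protein gene passed the test. The median of the members was 0.13, against -0.01 for all features, and 50 of 72 were positive (48.6% of all features were), 40 of the 50 below the limit among them, and 22 negative (51.4%). No member had an adjusted p under 0.05 in limma with Benjamini-Hochberg adjustment (0% of all features had), and the smallest was 0.42; an ordinary linear model on the same values gave none either. At an unadjusted p under 0.05, 8 members were positive (4.24% of all features were called so), 6 of them below the limit, and 1 was negative (4.09%). The 8 were Rpl17, Rpl23, Rpl31, Rpl37a, Rpl39, Rpl39l, Rpl3l and Rps21, and the negative one was Rpl29. Positive in every 10-day pair were 14 of 72, a share of 19.4% beside 15.8% of all features. Without pair 15, the only female 10-day pair, the median was -0.01 and 38 members were negative. With arrays centred on the median in place of the signal correction, it was -0.042 with 39 of 72 negative. With no correction it was 0.15, against 0.20 for all features.

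The most positive 10-day means were those of Rps28 at 1.44 ± 1.30 (SD, n = 3), Rpl34 at 0.84 ± 0.57, Rpl37a at 0.77 ± 0.73, Rps21 at 0.66 ± 0.78, Rpl9 at 0.66 ± 0.96 and Rpl3l at 0.50 ± 0.38. In several of them 1 array decided the mean. Rpl9 in pair 11 was 3.70 on the array with the transgenic sample in Cy3. Its other array was deposited as 0 and took -0.18 from the correction. Rpl37a in pair 15 was 2.86 and 0.10. Rps21, a small protein of the body of the small subunit, was 2.43 and 0.49 in pair 11. The most negative means were Rpl29 at -0.37, Rps4x at -0.32, Rps16 at -0.25, Rpl5 at -0.24, Rpl14 at -0.22 and Rpl32 at -0.20. The median gap between arrays was 0.27, 0.22 and 0.28 in the 10-day pairs.

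At 4 months with 2 copies, the ratios of the members leaned the other way and again none passed the test. The median was -0.22, against -0.01 for all features, and 56 of 72 were negative (52% of all features were), 38 of the 50 below the limit among them. No adjusted p was under 0.05 (0% of all features), and the smallest was 0.246, that of Rps29; the ordinary linear model gave none either. At an unadjusted p under 0.05, 11 members were negative (6.23% of all features), 6 of them below the limit, and 1 was positive (6.09%), Rpl3l. Below the limit these were Rpl36a, Rps15, Rps24, Rps26, Rps28 and Rps29, and near it Rpl8, Rpl32, Rpl34, Rpl35 and Rps12. Of the near-limit ones, Rps12 was deposited as 0 on both arrays of pairs 3 and 5 and on 1 of pair 1. Rpl35 was deposited as 0 on 1 array of each 4-month pair, and Rpl8 on both of pair 5 and 1 of pair 3. The negative means of these genes thus rest in part on the dye correction. Negative in every 4-month pair were 27 of 71 (17.8% of all features), 17 of 49 below the limit. Without pair 3 the median was -0.11 with 47 negative, and 5 members were called at an unadjusted p under 0.05, when 8.79% of all features were (12.3% with all pairs).

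Rps28, a small-subunit head protein, and Rpl34, of the large subunit, had the lowest 4-month means, -1.79 ± 1.78 and -1.31 ± 1.12 (SD, n = 3; adjusted p = 0.345 and 0.277 in limma). Rps29, a zinc-binding protein of the head, followed at -0.92 ± 0.55. Rps18, which sits at the head of the small subunit, had a mean of -0.77 ± 1.03 that came from pair 1: its ratios were -1.95, -0.24 and -0.11. Rpl27 was at -0.66 ± 0.49 and Rpl11 at -0.65 ± 0.55. On the positive side Rpl3l was at 0.45 ± 0.04, Rps2 at 0.42 ± 1.08, Rpl39l at 0.24, Rpl31 at 0.23, Rpl37 at 0.20 and Rps14 at 0.18. The value of Rps2 came from 1 near-limit array of pair 3, at 3.66. Its dye swap was deposited as 0 and takes -0.35 from the correction. Without pair 3 the mean of Rps2 was -0.19.

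Between the ages, 58 of 72 members had a more negative ratio at 4 months than at 10 days (50% of all features did), 45 of the 50 below the limit among them. The median difference was -0.29, against 0.00013 for all features, and it was -0.16 without pair 15 and -0.21 without pair 3. No member had an adjusted p under 0.05 (0% of all features), and the smallest was 0.934; the ordinary linear model gave none either. At an unadjusted p under 0.05, 10 were negative (2.41% of all features) and 0 positive (2.17%), and 5 of the 10 were below the limit. All 4-month pairs lay below all 10-day pairs in 11 of 71 members (5.34% of all features): Rpl4, Rpl36a, Rpl39, Rps15a, Rps28 and Rps29 below the limit, and Rpl8, Rpl34, Rpl35, Rpl37a and Rps6 near it. Rpl8, Rpl35 and Rpl37a lacked a ratio on at least 6 arrays, so their order rests in part on the dye correction. The reverse order occurred in Rpl37 alone (5.07% of all features).

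Rps28 had the largest difference of any member, with ratios of 1.36, 2.78 and 0.18 in pairs 11, 13 and 15 and of -0.13, -3.67 and -1.57 in pairs 1, 3 and 5. Every 10-day pair was positive, every 4-month pair negative, and both arrays of each pair had the same sign after the correction. As deposited, the arrays of pair 15 read 0.14 and -0.10 and those of pair 1 read 0.19 and 0.18. The negative sign of pair 1 thus comes from the correction. The lowest pair was the least certain: its arrays read -4.83 and -2.51. The difference was -3.23 (SE 0.92, adjusted p = 0.934 in limma).

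Rpl34 followed Rps28 pair by pair, with 0.98, 1.32 and 0.21 at 10 days and -0.22, -2.46 and -1.25 at 4 months, a difference of -2.14 (SE 0.53, adjusted p = 0.934). For both genes pair 13 was the highest and pair 3 the lowest, while pair 15, the highest for Rpl5, Rps19 and Rplp2, had 0.18 for Rps28 and 0.21 for Rpl34. Rpl34 was near the limit with at least 1 array lacking a ratio. Its arrays of pair 15 had opposite signs, -0.24 and 0.66. Those of pair 1 were deposited as 0.02 and 0.20, so the negative sign there comes from the correction. Many ribosomal protein genes have near-identical pseudogene copies, whose transcripts a probe may also bind, and the probe sequences were not used here.

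Rps29 had 0.60, -0.04 and 0.77 and then -1.30, -1.16 and -0.29, a difference of -1.36 (SE 0.31). Its groups did not overlap, and its low values came from pairs 1 and 3 in like measure. The other members with the most negative differences were Rpl27 at -1.16, Rps19 at -1.08 and Rpl37a at -1.05. The most positive were Rps2 at 0.61, Rps14 at 0.35, Rps16 at 0.29, Rpl37 at 0.28, Rpl10a at 0.22 and Rpl14 at 0.21, of which all but Rpl37 and Rpl14 were near the limit.

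**Figure D4:**
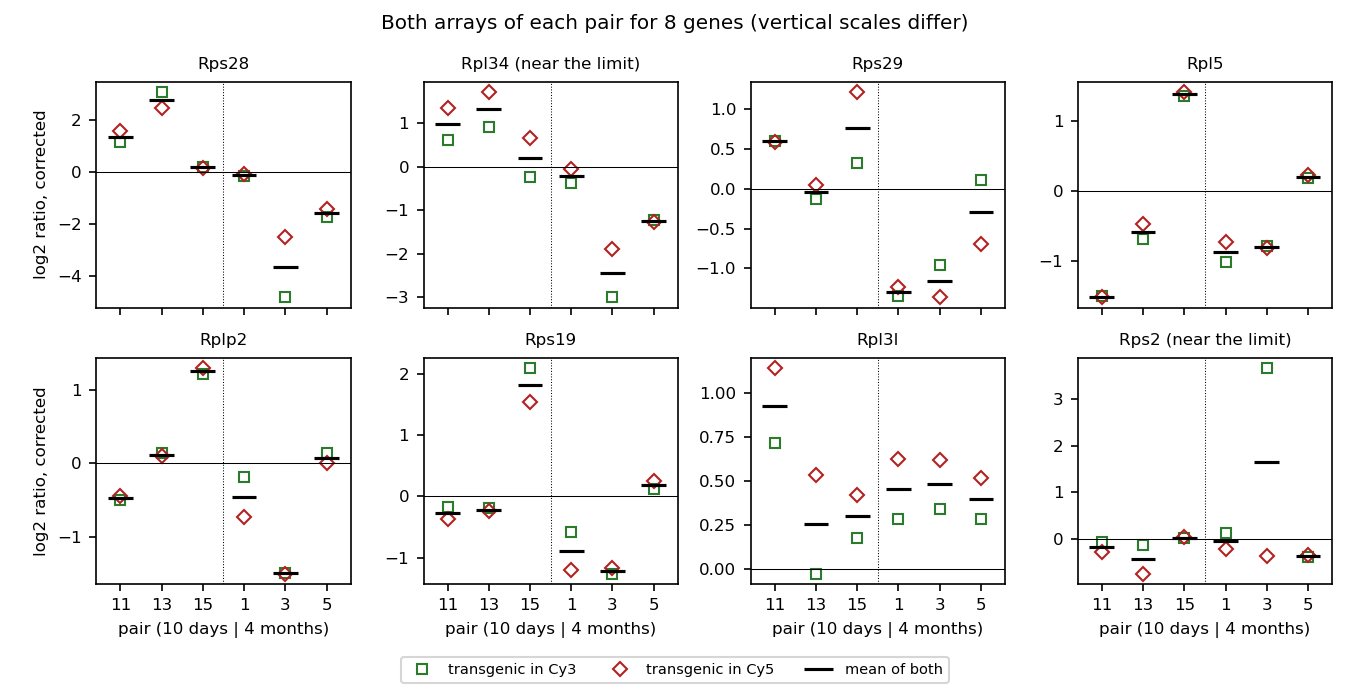
Log2 ratios on both arrays of each pair for 8 members, squares with the transgenic sample in Cy3, diamonds with it in Cy5, bars their mean; vertical scales differ between panels. The arrays of Rps28, Rpl5, Rplp2 and Rps19 lie close together in most pairs, while Rps2 in pair 3 reads 3.66 on one array. The other array of Rps2 was deposited as 0 and takes -0.35 from the correction.

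Over all 6 pairs no member passed the test either, with a median of -0.08 (all features -0.01) and 46 of 72 negative (52.9% of all features). The adjusted p was under 0.05 for no member and for 12 features (0.0558%), and the smallest among the members was 0.104. An ordinary linear model called 1 feature and no member. At an unadjusted p under 0.05, 3 members were positive (7.52% of all features) and 4 negative (7.48%), and the 4 negative ones, Rpl29, Rpl32, Rps12 and Rps4x, were all near the limit. The lowest means were those of Rps18 at -0.48, Rpl5 at -0.36, Rpl29 at -0.32, Rps4x at -0.28, Rpl13 at -0.28 and Rpl32 at -0.27. Rpl29 and Rpl32 were negative in every pair after the correction, as were 4.76% of all features. For Rpl29 no deposited value was negative in pairs 11, 1, 3 and 5, and for Rpl32 none in pairs 11 and 3. Their negative signs in those pairs come from the correction. Rps12 was deposited as 0 on 9 of 12 arrays, where its value comes from the correction too. Rps4x, the X-linked small-subunit protein, had -0.05, -0.48 and -0.44 and then 0.18, -0.46 and -0.44.

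The 3 positive members were positive in every pair (5.67% of all features were), and all lay below 4096 in signal. Rpl3l, the paralogue of Rpl3 known from striated muscle, had 0.93, 0.26 and 0.30 at 10 days and 0.45, 0.48 and 0.40 at 4 months. Its mean was 0.47 (SE 0.10, adjusted p = 0.104), and its 4-month ratios had an SD of 0.04. Rpl31, at the tunnel exit, had 0.79, 0.52 and 0.17 and then 0.33, 0.13 and 0.22, a mean of 0.36 (adjusted p = 0.15). Rpl39l, the paralogue of Rpl39 known from the testis, had 0.57, 0.19 and 0.32 and then 0.0030, 0.28 and 0.44, a mean of 0.30 (adjusted p = 0.188). In each of the 3 the groups overlapped. The means of Rpl9 (0.27) and Rpl37a (0.24) rested on single arrays, and Rpl22l1 was at 0.23.

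By role, the median of both subunits was highest in pair 15 (0.37 large, 0.33 small) and lowest in pair 3 (-0.38 and -0.58). The large subunit had medians of 0.16 at 10 days and -0.17 at 4 months, with 32 of 46 positive and 35 negative, and the small subunit 0.10 and -0.25, with 18 of 26 positive and 21 negative. Of all 72 members 69.4% were positive at 10 days and 77.8% negative at 4 months, against 48.6% and 52% of all features. The 3 stalk proteins Rplp0, Rplp1 and Rplp2 had a median of 0.22 and then -0.38, with 1.11 in pair 15 and -0.87 in pair 3. Rplp0, often used as a reference gene, was the nearest to 0 of the 3 in pairs 11, 15 and 3 but not in the others: 0.08, 0.08 and 0.48, then -0.38, -0.08 and 0.24. The pair Rpl5 and Rpl11, which with the 5S RNA can hold back Mdm2, had a median of 1.31 in pair 15 and of -1.07, -1.02 and -0.75 in pairs 11, 1 and 3. Rpl23, which also binds Mdm2, had 0.35, 0.12 and 0.30 and then 0.21, 0.19 and -0.14.

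In the small subunit, 10 of the 11 measured head proteins had a negative 4-month mean, with a median of -0.41 after 0.28 at 10 days. The 14 body and platform proteins had -0.24 after 0.04, with 11 negative. Rps6, the target of the S6 kinases, was near the limit and had 1.08, -0.23 and 0.29 and then -0.29, -0.59 and -0.44. The first value came from arrays at 2.34 and -0.18, of which the latter was deposited as 0. The 8 tunnel exit proteins had 0.19 and -0.17. The 15 measured members of 16 listed genes that are mutated in Diamond-Blackfan anaemia, a failure of red cell formation, had 0.19 and -0.42, with 12 negative at 4 months. The 4 X-linked members Rpl10, Rpl36a, Rpl39 and Rps4x had 0.09 and -0.22, with all 4 negative at 4 months. Rpl36a had 0.26, -0.04 and 0.06 and then -0.20, -0.39 and -0.25, Rpl39 0.38, 0.29 and 0.57 and then 0.27, -0.61 and 0.14, and Rpl10 -0.44, -0.28 and 0.97 and then -0.15, -0.48 and 0.03. Beside these counts, 77.8% of all 72 members and 52% of all features were negative at 4 months. No list was tested against those shares. None of these lists held a member with an adjusted p under 0.05.

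The listed paralogues of ribosomal protein genes had mostly positive mean ratios at both ages. The 5 of 8 that were measured had a median of 0.29 at 10 days and 0.16 at 4 months, with 4 positive at 4 months. Of all 72 members 22.2% and of all features 48% were positive at 4 months. Rpl3 itself had -0.81, -0.32 and 1.00 and then -0.38, -0.13 and 0.16, while Rpl3l was positive in every pair. Rpl22l1 had -0.02, 0.23 and 0.65 and then 0.41, 0.08 and -0.0009, and Rpl22, its partner, 0.11, 0.03 and 0.53 and then 0.11, -0.16 and 0.29. Rps27l, a p53 target, was at 0.64 in pair 1 and -0.46 in pair 3, and Rps27 at 0.20 and -0.92. Rpl7l1 was at -0.72 in pair 3, and Rpl7, near the limit, at -0.56. The differences between paralogues and partners were not tested.

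Lists of other genes of protein synthesis, the proteasome and the respiratory chain had medians closer to 0 in pair 3 than the members (-0.49). In pair 15 most of them lay closer to 0 than the members (0.37), but the other mRNAs with a terminal oligopyrimidine tract lay near them. The 6 elongation factors had 0.25 in pair 15 and -0.07 in pair 3. In pairs 15 and 3 the 76 mitochondrial ribosomal proteins had medians of 0.12 and -0.0011, the 48 translation initiation factors 0.10 and 0.05, and the 31 ribosome assembly genes -0.09 and -0.12. The 15 other mRNAs known to have a terminal oligopyrimidine tract had 0.34 in pair 15, with 11 positive, and -0.38 in pair 11, with 13 negative, but -0.04 in pair 3. Among them Tpt1, which encodes the translationally controlled tumour protein, had -1.99, -0.26 and 1.74 at 10 days and -0.76, -0.20 and -0.21 at 4 months, high and low in the same 10-day pairs as Rpl5. The 38 proteasome subunits had 0.09 and -0.14 and the 75 respiratory chain genes 0.24 and 0.15. None of these lists held a gene with an adjusted p under 0.05 in any comparison.

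**Figure D5:**
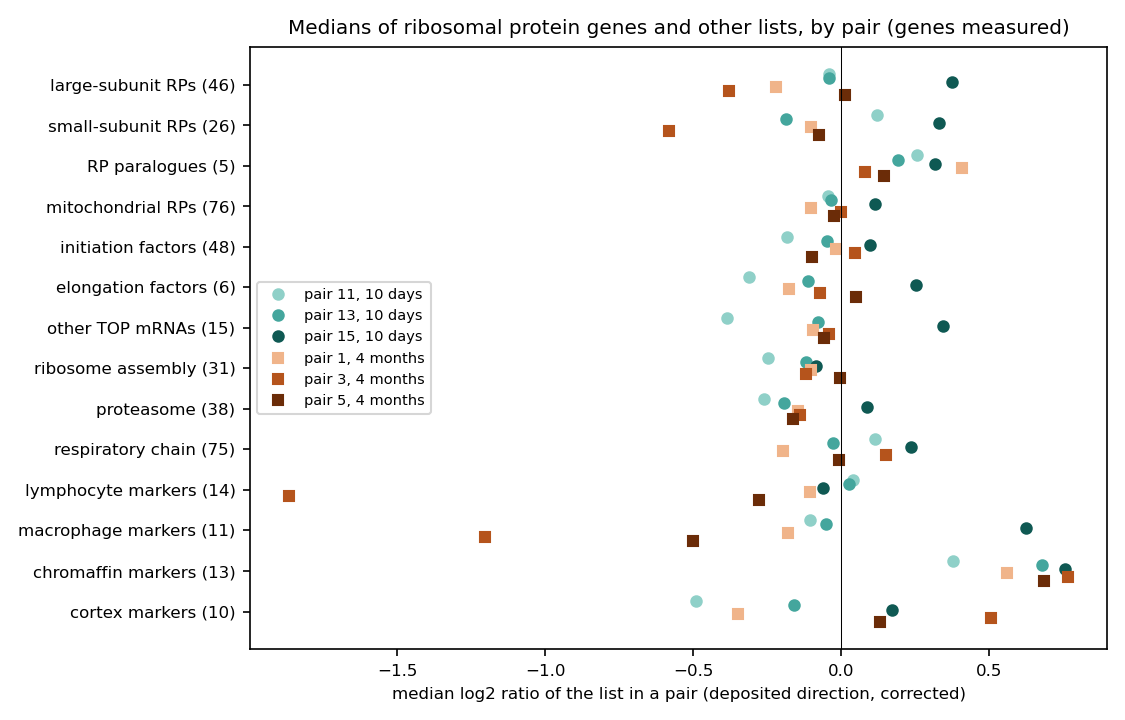
Median log2 ratio of each list in the 6 pairs (circles 10 days, squares 4 months; genes measured in brackets; RP, ribosomal protein; TOP, terminal oligopyrimidine). Ribosomal proteins are lowest in pair 3 and highest in pair 15, and the lymphocyte (-1.86) and macrophage (-1.20) markers are lowest in pair 3 too.

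Markers of other cells also differed between pairs, some in the pairs where the ribosomal protein genes stood apart and some in others. All 14 measured lymphocyte markers were negative in pair 3, with a median of -1.86 (range -5.50 to -0.04), and in pair 5 all 14 were negative with a median of -0.28, while the 10-day medians were -0.06 to 0.04. Of 11 macrophage markers 10 were negative in pair 3 (median -1.20) and 9 positive in pair 15 (median 0.62). Adipocyte markers had a median of 1.04 in pair 15 with 6 of 7 positive, erythroid markers 0.61 in pair 15 and -1.28 in pair 13, and hepatocyte markers 1.02 in pair 11 with 8 of 8 positive. Chromaffin markers had medians of 0.38 to 0.77, with 5 of 13 negative in pair 11 and 1 to 4 in the other pairs. The markers of the steroidogenic cortex had a median of 0.51 in pair 3 with 7 of 10 positive, 0.17 in pair 15 and -0.49 in pair 11. The part of these cells in the ribosomal protein ratios was not tested. Pair 5 also had low macrophage markers (median -0.50), and there the ribosomal protein median was -0.03. With sex added to the model, 24 members were called at 4 months at an unadjusted p under 0.05 in place of 12, and 12.8% of all features in place of 12.3%. Sex is balanced over the groups, so the group means of a gene with a value in every pair cannot change.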

How the data were processed

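Adrenal RNA of 6 transgenic and wild-type pairs was measured on 12 2-colour arrays. The authors deposited log2 ratios of the channels. No source used here names the scanner, background handling or normalization. Where Cy3 held the transgenic sample (6 arrays), 100% of values were ratios of whole numbers up to 65535 (relative tolerance 1e-13), from which spot signals were recovered. Probes with an exact 0 on at least 3 arrays, or on fewer with a whole number of at least 16384 elsewhere, were taken as at the scanner limit (59 probes). Each array was corrected by loess on signal (span 0.3). Columns were not turned, since both arrays of a pair, which correlated at -0.50 to -0.10 as deposited, correlated at 0.18 to 0.65 after removing the orientation mean, against -0.31 to 0.14 for different pairs. Probes of a gene and then the arrays of a pair were averaged.

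Pairs were fitted in limma 3.58.1 (R 4.3.3) with a mean per group, on features with a value in at least 2 pairs of each group, two-sided, with Benjamini-Hochberg adjustment over all 21513 features and a threshold of 0.05. The procedure was tested on simulated data. Named were the 6 most negative and 6 most positive members per comparison, near-limit members, and those of stated roles; Tpt1, the 10 members above 1 in pair 15 and the examples of single arrays were picked after their values were seen. Members and lists were chosen with earlier results of these data known. Of 73 probes, 72 matched a RefSeq symbol.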

Additional observations from a re-analysis of the deposited data

Results flagged for a closer look

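In 3 members every 10-day pair was positive and every 4-month pair negative, which 1.32% of all features also showed. The 4-month minus 10-day difference was -3.23 for Rps28, -2.14 for Rpl34 and -1.05 for Rpl37a. In limma the adjusted p of each difference was 0.934, so none passed the test. For Rps28 both arrays of every pair had the same sign after the correction, and without pair 3 the difference was -2.29. Its arrays of pair 1 were deposited as 0.19 and 0.18, so the negative sign there comes from the correction. Rpl34 was near the scanner limit, and its difference was -1.57 without pair 3. Its arrays of pair 15 read -0.24 and 0.66, and those of pair 1 were deposited as 0.02 and 0.20. Rpl37a had no usable ratio on at least 7 of 12 arrays. Its 4-month values were deposited as 0 on both arrays of pairs 1 and 5, and as 0.71 and 0 in pair 3, so its negative sign there is set by the dye correction. Its 10-day values came from 1 array each in pairs 11 and 15. In pair 11 that array read 1.78, and the other, deposited as 0, took -0.17 from the correction. In pair 15 the arrays read 2.86 and 0.10.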

How the results depend on the processing

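The calls rest on 3 pairs a group and on spots of which 22 of 72 members were near the scanner limit. Of 20 alternatives 17 were planned and 3, on spots at the limit and discordant dye swaps, were chosen after seeing the data; the cause of a change was not tested. No paired analysis was possible because the groups share no replicate number.

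The 10-day median of the members turned to -0.042 with arrays centred on the median. With no correction the median was 0.15 at 10 days, 0.13 at 4 months, 0.13 over all pairs and 0.024 for the difference. The medians of all features were then 0.20, 0.36, 0.28 and 0.17. Leaving out 1 pair, the medians ranged from -0.0086 (without pair 15) to 0.26 at 10 days, -0.31 to -0.11 at 4 months, -0.11 to 0.0076 (without pair 3) over all pairs and -0.42 to -0.16 for the difference.

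Features with an adjusted p under 0.05, in the order 10 days, 4 months and all pairs, numbered 18, 2548 and 5964 with no correction, 75, 290 and 777 with 12 arrays and the pair as a random block, 31, 289 and 1412 on Cy3 arrays only, and 223, 922 and 3430 on Cy5 arrays only. The difference gave 16 with no correction. Over all pairs there were 0 with centred arrays, 0 with sex added, 1 in the ordinary linear model, 54 with each probe on its own and 37 with discordant swaps missing. Without 1 pair the counts were 0 to 1 at 10 days, 0 to 16 at 4 months, 0 to 23 over all pairs and 0 to 6 for the difference. Members passed an adjusted p of 0.05 under 4 alternatives: with the random block Rpl34 at 4 months, and Rpl31 and Rpl3l over all pairs; with no correction Rpl34, Rpl3l and Rps28 at 4 months, Rps28 for the difference and 6 over all pairs; on Cy3 arrays Rpl37 at 4 months, and Rpl35a and Rpl37 over all pairs; on Cy5 arrays Rpl28 and Rps29 at 4 months, and 9 over all pairs.

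Members with an unadjusted p under 0.05 are given with the share of all features called under the same setting. The ordinary linear model gave 5 (7.85%) at 10 days, 7 (10.6%) at 4 months and 6 (4.76%) for the difference. The random block gave 21 (14.9%) at 4 months and 19 (6.29%) for the difference, and sex added 24 (12.8%) and 21 (5.1%). Cy5 arrays gave 21 (26.8%) at 4 months and 20 (34%) over all pairs. Without near-limit features there were 7 (12.3%) at 4 months, 3 (15%) over all pairs and 5 (4.55%) for the difference. Over all pairs there were 12 (17.7%) with centred arrays and 15 (48.9%) with no correction. For the difference there were 6 with centred arrays (4.64%), with limit values missing (4.58%) and with discordant swaps missing (4.77%). Without 1 pair there were 7 to 11 at 10 days (5.48% to 8.93%), 5 to 18 at 4 months (8.79% to 13.5%), 6 to 13 over all pairs (10.2% to 14.7%) and 6 to 18 for the difference (3.31% to 7.36%).

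Of the 48 values of named members 14 turned sign somewhere, in 27 of 926 alternatives. On Cy5 arrays Rpl14 was 0.057 at 10 days, Rps2 -0.29, Rpl37 -0.37 and Rps14 -0.11 at 4 months, Rpl37a -0.14 over all pairs and the Rpl10a difference -0.33. On Cy3 arrays Rpl39l was -0.11 at 4 months, and Rpl13 0.045 and Rpl22l1 -0.12 over all pairs. With discordant swaps missing, Rps2 was -0.19 and Rps14 -0.17 at 4 months, Rpl9 -0.17 over all pairs, and the differences of Rps2, Rps14, Rps16 and Rpl10a were -0.0074, -0.0020, -0.13 and -0.45. With limit values missing Rps2 was -0.19 at 4 months and -0.13 for the difference. Without pair 11 Rpl5 was 0.40 at 10 days and Rpl9 -0.0021 over all pairs. Without pair 1 Rps14 was -0.17 at 4 months, and the differences of Rps14 and Rps16 were -0.0020 and -0.13. Without pair 3 Rps2 was -0.19 at 4 months, and the differences of Rps2 and Rpl10a were -0.0074 and -0.06. Without pair 15 the Rpl10a difference was -0.17. At the other end of the values without 1 pair, Rpl5 was -1.05 at 10 days, Rps2 0.81 and Rps14 0.53 at 4 months, Rpl9 0.45 over all pairs, and the differences of Rps2, Rps14, Rps16 and Rpl10a were 0.99, 0.69, 0.54 and 0.65.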
